A study of Mus musculus with 2 samples.

Results

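Complement is a set of plasma and membrane proteins that mark and lyse microbes and clear dying cells. The classical arm starts when C1q binds antibody or cell debris, the lectin arm when collectins or ficolins bind sugars, and the alternative arm amplifies C3 cleavage through factors B and D. All arms meet at C3, the terminal components assemble the membrane attack complex, receptors on leukocytes read the cleaved fragments, and regulators protect the host's own cells. Most circulating components come from the liver, but macrophages make C1q and properdin, adipocytes make factor D (adipsin), and fibroblasts and mesothelial cells make several others. The 34 complement genes described here were chosen by gene symbol, out of 24346 symbols listed in each file, and all 34 were found.

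RNA-seq was performed on the whole omentum, a fold of abdominal fat with leukocyte clusters called milky spots. There were 2 libraries, 1 of the WT and 1 of the Postn-DTR genotype, both taken 5 days after an injection of diphtheria toxin (DT), so the toxin was common to both. Postn-DTR mice are C57BL/6 heterozygotes with a DT receptor inserted into the first coding exon of Postn, which exposes any cell using that promoter to the toxin and interrupts that copy of the gene. The study made the mice to ablate Aldh1a2+ fibroblastic reticular cells (FRCs), but myofibroblasts, osteoblasts and colonic epithelium are also known to use this promoter. It reported that DT also reduced another omental FRC population to some degree. Some Postn-DTR mice had an enlarged cecum after DT, and the study stated that systemic effects on the milky spots remained possible. Age, and the number of mice behind each library, were not given in the sources used here.

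With 1 library per genotype there was no spread between replicates and no test, so every difference below describes these 2 libraries. The values are FPKM, which are fragment numbers corrected for transcript length and sequencing depth. A gene's change is its log2(FPKM + 1) in Postn-DTR less that in WT, and fold values are plain ratios of FPKM. Where 2 values of a gene stand together, WT comes first. Genes were compared where their FPKM averaged 1 or more, which left 29 of the 34 complement genes and 13127 genes in all, and a gene was counted as higher or lower when its change reached 2-fold. The 95% intervals given with some folds are exact binomial intervals from approximate read numbers. They cover counting error only, not differences between mice.

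Facts of the whole libraries bear on these values. Low values placed the depths at about 23300000 fragments in WT against 24100000 in Postn-DTR. Postn itself was at 58.3 in WT against 16.2 in Postn-DTR. The WT library held pancreatic acinar RNA, with a summed FPKM of 12577 for 31 acinar genes against 20.4 in Postn-DTR, and all 29 of those compared were lower. The FPKM summed to 542190 and 671882, and setting both totals equal after removing the acinar genes shifted the median change of all genes by -0.30. The median thereby went from 0.02 to -0.28, so the rescaled values were not centred on 0. The acinar genes held 2.32% of the WT sum, so most of the shift came from the difference in totals rather than from removing these genes. Where this rescaling ended the call of a complement gene or turned its direction, its value is given beside the result, and marker lists are given with their counts or medians on that scale. The whole omentum also cannot tell apart fewer cells of a type and less RNA per cell.

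Promoter stretches are shown for pairs that frame the results: C1qb and Vsig4, macrophage-expressed members that were higher in Postn-DTR, and C6 and C7, neighbours on chromosome 15 that differed in opposite directions. Each is the RefSeq sequence (GRCm38.p6) before the annotated start, 5′ to 3′ on the gene's strand. Capitals mark GGAAGT, the core bound by ETS factors such as PU.1, or AGGTCA, the half-site of nuclear receptors such as the retinoic acid receptors, on either strand.
C1qb, minus strand, chr4:136886201-136886450: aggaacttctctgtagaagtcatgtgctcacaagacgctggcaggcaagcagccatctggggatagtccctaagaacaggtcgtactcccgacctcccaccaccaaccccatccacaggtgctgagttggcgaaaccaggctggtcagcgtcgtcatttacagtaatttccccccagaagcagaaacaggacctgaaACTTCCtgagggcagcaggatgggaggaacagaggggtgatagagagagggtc
Vsig4, minus strand, chrX:96293439-96293688: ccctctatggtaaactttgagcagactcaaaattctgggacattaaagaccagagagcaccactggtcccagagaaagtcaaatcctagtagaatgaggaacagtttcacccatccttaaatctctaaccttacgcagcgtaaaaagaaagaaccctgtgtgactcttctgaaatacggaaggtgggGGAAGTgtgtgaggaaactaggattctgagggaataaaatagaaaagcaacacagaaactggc
C6, plus strand, chr15:4726960-4727174: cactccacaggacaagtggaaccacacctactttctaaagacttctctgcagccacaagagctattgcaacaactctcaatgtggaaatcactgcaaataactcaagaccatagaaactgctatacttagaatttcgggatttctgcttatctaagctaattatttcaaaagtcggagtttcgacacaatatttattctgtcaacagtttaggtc
C7, minus strand, chr15:5063774-5064023: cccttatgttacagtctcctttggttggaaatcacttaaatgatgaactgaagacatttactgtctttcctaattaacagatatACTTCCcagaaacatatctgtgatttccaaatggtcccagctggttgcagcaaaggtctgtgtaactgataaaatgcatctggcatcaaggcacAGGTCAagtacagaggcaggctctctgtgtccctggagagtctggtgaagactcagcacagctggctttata
In the 250 bases before the start, GGAAGT (or ACTTCC) lay in 19.7% of 32851 promoters and AGGTCA (or TGACCT) in 14.0%. Of the 24 complement genes with a promoter in this table, 8 held the first (C1qb, C1qc, C5ar1, C5ar2, C7, Fcna, Masp2 and Vsig4) and 5 the second (C1qc, C3, C5ar2, C6 and C7). The shares count promoters, whereas a gene was counted if any of its promoters held the motif, so the units are unlike. The match of C6 runs past the end of the stretch shown, which stops at the earliest annotated transcript start. Both motifs occurred in genes with higher and with lower FPKM in Postn-DTR. A match is a description of the letters and not a bound site.

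Complement transcripts were abundant in the omentum. Together the 34 genes summed to 15275 FPKM in WT, which was 2.82% of the library, and to 17061 in Postn-DTR, or 2.54%. Cfd and C3 made up most of this. Without them the sum went from 5108 (0.942%) to 8392 (1.25%). Of the 29 genes compared, 7 were at least 2-fold higher in Postn-DTR (24.1%) and 4 at least 2-fold lower (13.8%), where 3.88% of all genes compared were higher and 3.12% lower. The higher genes were C4b, Fcna, Cfb, Cfp, C6, C5ar1 and Vsig4, and the lower genes were Colec11, C7, Vtn and Cd55. At equal totals the 4 lower genes remained lower, and of the 7 higher genes only Vsig4 stayed past 2-fold, against 2.34% of all genes higher and 5.98% lower on that scale. This rescaling moves changes down, so it can end a higher call but not a lower one. Whether other RNA came with the acinar RNA into the WT library was not tested. The median change of the 29 genes was 0.16 (0.02 for all genes) and -0.18 at equal totals (-0.28 for all genes). Its sign thus depended on the scaling. It lay above the median of all genes on both scales, but the rescaling shifts genes by similar amounts, so the second scale is no separate evidence.

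**Figure D1:**
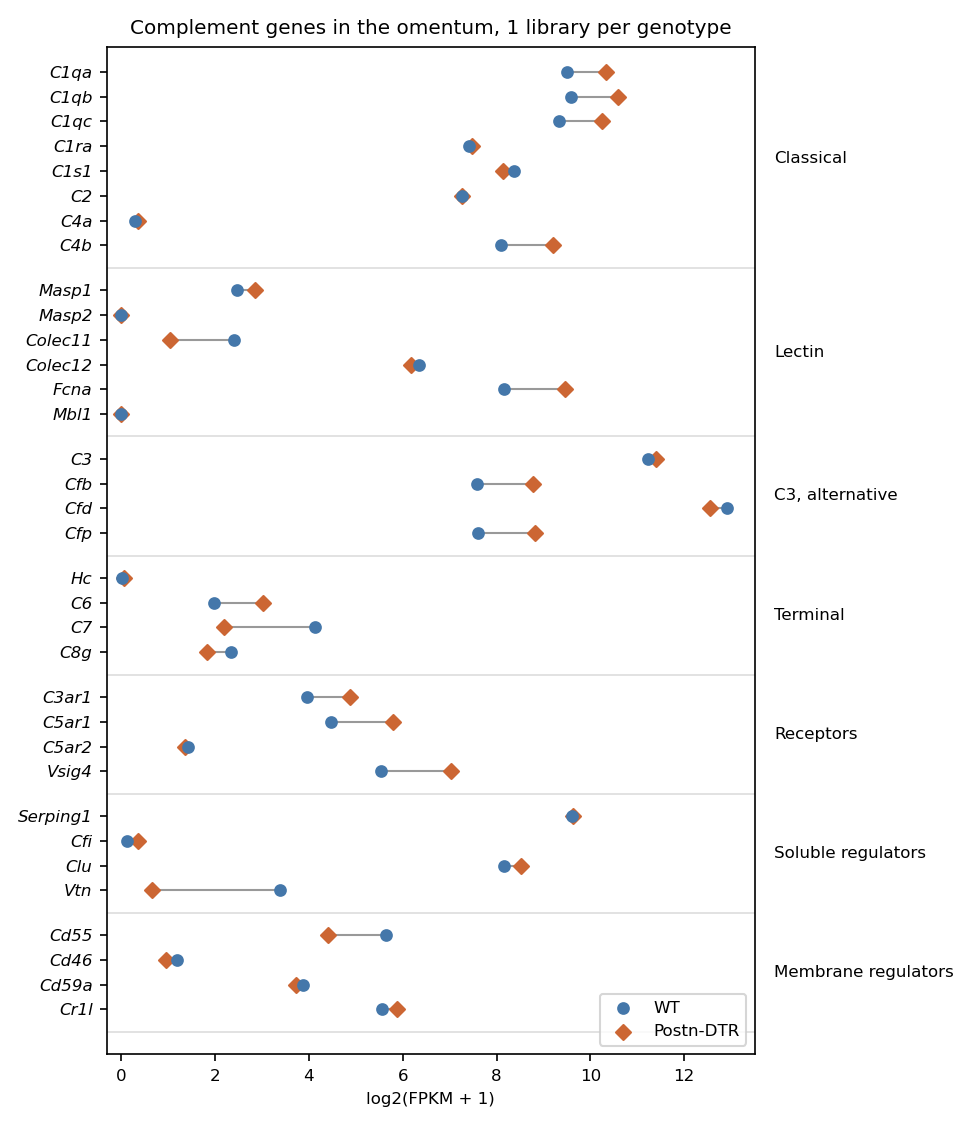
The level of each of the 34 complement genes, as log2(FPKM + 1) on the horizontal axis, in the WT library (circles) and the Postn-DTR library (diamonds), grouped by role with 1 library per genotype. Cfd and C3 lie farthest to the right, and the longest lines to lower values in Postn-DTR belong to Vtn (9.48 and 0.565 FPKM) and C7 (16.5 and 3.54 FPKM).

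The classical arm was examined first. C1q is built from A, B and C chains, whose genes sit side by side on chromosome 4 (GRCm38, minus strand), with C1qb at 136880129 to 136886187, C1qc at 136889804 to 136893065 and C1qa at 136895917 to 136898803. C1qa reached 726.8 FPKM in WT against 1282 in Postn-DTR. C1qb was at 771.8 and 1536, and C1qc at 640.4 and 1220.1. The 3 chains were thus higher together, by 1.76-fold, 1.99-fold and 1.91-fold, with changes of 0.82, 0.99 and 0.93 that lay below the 2-fold threshold, C1qb closest to it. At equal totals these changes were 0.48, 0.65 and 0.59, still above 0. The chains kept a similar proportion in both libraries, with C1qa at 0.942 of C1qb in WT against 0.835 in Postn-DTR, and C1qc at 0.830 and 0.794.

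The proteases that C1q activates did not share this difference. C1ra, which encodes the protease that cleaves C1s, was at 168.9 and 177.6, and C1s1, which encodes the protease that cleaves C4 and C2, was at 328.6 and 278.7. Their changes of 0.07 and -0.24 became -0.27 and -0.58 at equal totals, so C1ra turned its direction. C1qb thus went from 2.35 times the FPKM of C1s1 in WT to 5.51 times in Postn-DTR. The exons of C1s1 overlap an opposite-strand gene, as those of C2, Fcna, Masp2, Hc, Cd55 and Cd46 do, and whether the counting used strand was not stated.

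The substrates of C1s also differed from each other. C4b, which encodes the C4 that covalently tags targets, was at 271.6 in WT against 592.1 in Postn-DTR, 2.18-fold higher with a change of 1.12. This change was 0.78 at equal totals. C2, the protease subunit of the classical C3 convertase, was at 152.2 and 152.4, a change of 0.00 that became -0.34. The ratio of C4b to C2 FPKM was 1.78 in WT and 3.89 in Postn-DTR. C4a was listed at only 0.233 and 0.273. C4a and C4b are near-identical copies on chromosome 17 (34809092 to 34823464 and 34728380 to 34743882, both minus strand), so how reads were split between them is uncertain, and the C4b value may hold reads of both. Over the 7 classical genes compared, 6 had a change above 0 and 1 below, and the median change was 0.82, or 0.48 at equal totals.

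The lectin arm was carried by few transcripts. Fcna, which encodes ficolin A, a plasma sugar-binding lectin that macrophages express, was the most abundant, at 284.7 in WT against 701 in Postn-DTR. This was 2.46-fold higher with a change of 1.30, which 2.29% of all genes compared reached, and 0.95 at equal totals. Colec12, a scavenger receptor collectin of the endothelium, was at 80.8 and 71.3. Colec11, which encodes the soluble collectin CL-K1, went the other way. It was at 4.32 and 1.05, 4.10-fold lower with a counting interval of 2.73 to 6.25, from about 122 and 31 reads. Its change of -1.37 was -0.62 with a pseudocount of 5, within 2-fold. Masp1, a protease that partners soluble lectins such as ficolin A and CL-K1, was at 4.53 and 6.17, a change of 0.37. The genes for the main lectin protease, Masp2, and for mannose-binding lectin A, Mbl1, were listed at 0 in both libraries. Much of the exon sequence of Masp2 overlaps Tardbp on the opposite strand, which limits what its 0 says. The 4 lectin genes compared therefore split into 2 above and 2 below 0, with a median of 0.10 that turned to -0.22 at equal totals.

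C3 and the alternative arm held the most abundant complement transcripts. Cfd, which encodes factor D or adipsin, the serine protease that cleaves bound factor B, ranked 1 of all genes in WT at 7764 and 5 in Postn-DTR at 5976. It was 1.30-fold lower, a change of -0.38. C3, the component on which all arms converge, was at 2404 and 2693, and its change of 0.16 became -0.18 at equal totals, so its sign depended on the scaling. Cfb, which encodes factor B, was at 191.9 in WT against 439.6 in Postn-DTR, or 2.29-fold higher, and Cfp, which encodes properdin, the stabiliser of the alternative convertase, was at 194.1 and 453.5, or 2.34-fold higher. Cfb and Cfp were thus higher by similar folds while Cfd was lower, and the FPKM of Cfd went from 40.5 to 13.6 times that of Cfb. At equal totals the changes of Cfb and Cfp, 1.19 and 1.22, were 0.85 and 0.88.

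Cfb and C2 are neighbours and related genes on chromosome 17, at 34856374 to 34862518 and 34862604 to 34898265, and an annotated read-through gene shares exons with both. Their values still separated, from 1.26 in WT to 2.89 in Postn-DTR as the ratio of Cfb to C2 FPKM.

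The terminal components were low in both libraries. Hc, which encodes C5, was listed at 0.0164 and 0.0395, or about 2 and 5 reads, so no difference was detectable at this depth. C6, which encodes the first subunit to join C5b, was at 2.93 in WT against 7.11 in Postn-DTR, 2.43-fold higher with a counting interval of 2.04 to 2.90. C7, which anchors the growing complex to membranes, was at 16.5 and 3.54, 4.66-fold lower with a counting interval of 4.0 to 5.43. These 2 genes lie near each other on chromosome 15, C6 at 4727175 to 4814967 on the plus strand and C7 at 4988762 to 5063740 on the minus strand, and their FPKM ratio of C6 to C7 went from 0.177 to 2.01. C8g, which encodes the gamma chain of C8, was at 4.06 and 2.55, a change of -0.51. The change of C6, 1.05, was 0.77 at equal totals and 0.61 with a pseudocount of 5, whereas that of C7 stayed below -1 in all settings tried. From the other genes of the pathway, C8a, C8b and C9 were each under 0.1 in both libraries, so transcripts of the whole terminal complex were not seen in either library.

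**Figure D2:**
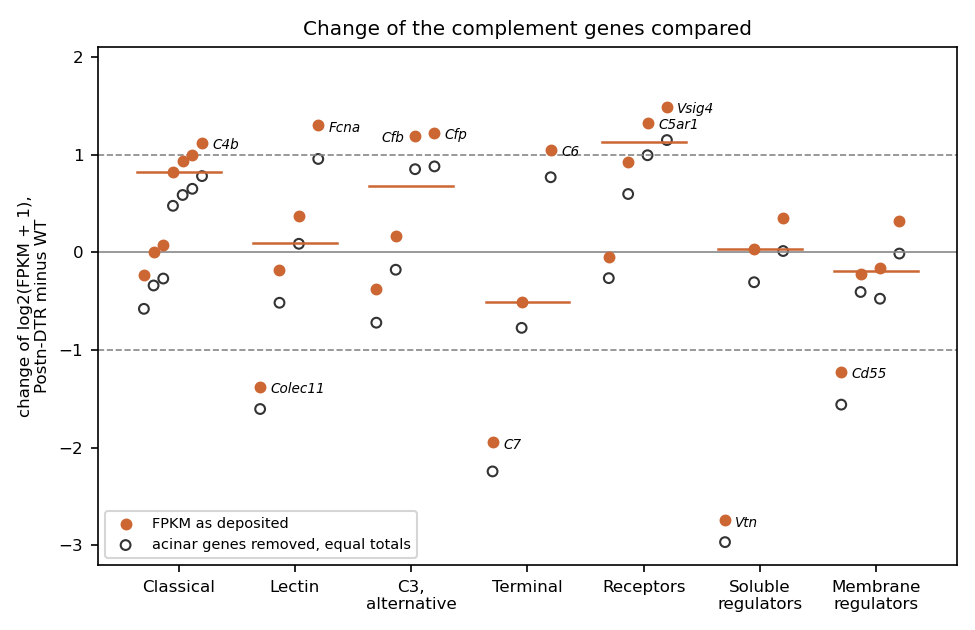
The log2(FPKM + 1) in Postn-DTR less that in WT for the 29 complement genes compared, by role, with FPKM as deposited (filled points, horizontal bars for the medians) and with acinar genes removed and totals made equal (open points); dashed lines mark 2-fold. Receptors have the highest median, 1.12 (0.79 at equal totals), and Vtn at -2.74 and C7 at -1.95 the lowest values.

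Among the receptors, those for the anaphylatoxins C3a and C5a and for C3b were measured. C3ar1, the C3a receptor, was at 14.6 in WT against 28.5 in Postn-DTR, or 1.96-fold higher. C5ar1, the main C5a receptor of myeloid cells, was at 21.1 and 54.3, or 2.58-fold higher with a counting interval of 2.41 to 2.76, and its change was 0.99 at equal totals. Vsig4, the C3b receptor of resident macrophages also called CRIg, was at 45.6 and 129.6, or 2.84-fold higher with an interval of 2.67 to 3.03. Its change of 1.49 was the largest increase of the 34 genes, 1.74% of all genes compared had one as high, and it was 1.15 at equal totals. C5ar2, the second C5a receptor, which sits next to C5ar1 on chromosome 7 (16234585 to 16244154 and 16246743 to 16259540, both minus strand), was at 1.68 and 1.58. The interval of its Postn-DTR to WT ratio, 0.730 to 1.22, lay below that of C5ar1, which went from 12.6 to 34.3 times the FPKM of C5ar2.

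Soluble regulators were mostly level, with 1 exception. Serping1, the C1 inhibitor that dissociates C1r and C1s, was at 775.5 and 795.2, and its change of 0.04 became -0.31 at equal totals. Clu, which encodes clusterin, a blocker of membrane attack complex insertion, was at 285.4 and 365.3, a change of 0.35 that became 0.01. Cfi, the protease that degrades C3b, was listed at 0.0917 and 0.288, about 4 and 13 reads. Vtn, which encodes vitronectin, an adhesion protein that also blocks the terminal complex, was at 9.48 in WT against 0.565 in Postn-DTR. This 16.8-fold difference had a counting interval of 10.7 to 27.3 from about 339 and 21 reads, and 0.442% of all genes compared had a change as low as its -2.74. The size of the change depended on the pseudocount, from -3.85 at 0.1 to -1.38 at 5, but it stayed below -1. Vtn lies on chromosome 11 at 78499091 to 78502324, plus strand, and its exons overlap no other annotated gene.

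Membrane regulators shield host cells from C3 convertases and the membrane attack complex. Cd55, which encodes decay-accelerating factor, was at 48.8 in WT against 20.3 in Postn-DTR, 2.41-fold lower with a counting interval of 2.25 to 2.58, and a change of -1.23 that was -1.56 at equal totals. Cr1l, which encodes Crry, the broadly expressed rodent inhibitor of the same convertases, was at 45.9 and 57.7, a change of 0.32 that became -0.01 at equal totals. Both were thus at similar FPKM in WT, but Cr1l was at 2.85 times Cd55 in Postn-DTR. Cd59a, which blocks C9 insertion, was at 13.7 and 12.2, and the interval of its Postn-DTR to WT ratio, 0.783 to 1.01, held 1. Cd46, largely confined to the testis in mice, was at 1.27 and 0.944. Cd55 and Cd59a have related copies, Cd55b and Cd59b, which were under 1 in both libraries.

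**Figure D3:**
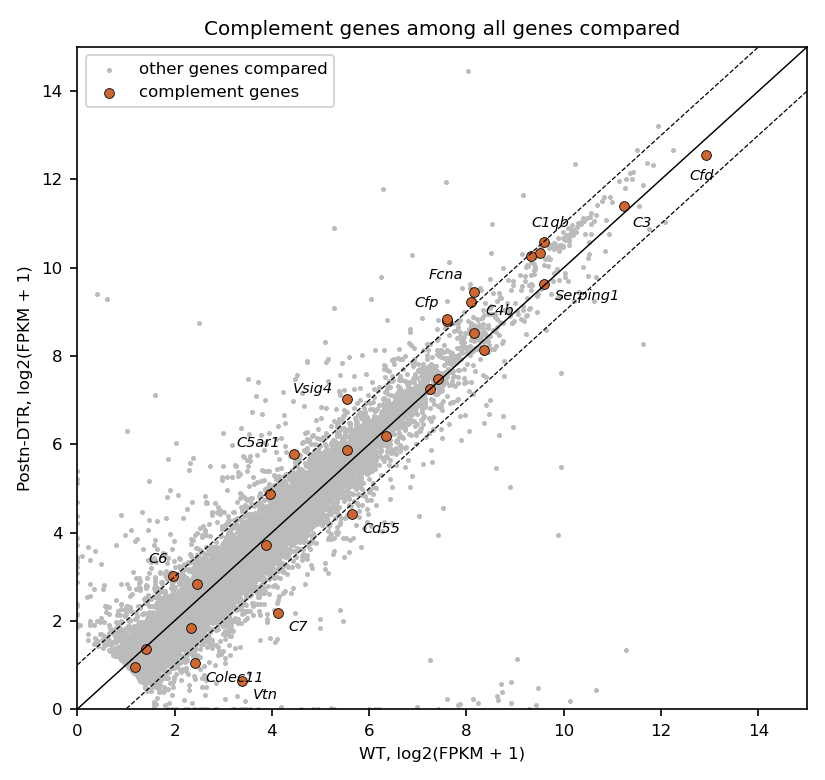
WT on the horizontal and Postn-DTR on the vertical axis, both as log2(FPKM + 1), for the 13127 genes compared (grey) with the 29 complement genes among them (orange); the solid line marks equal values and the dashed lines 2-fold. The 7 higher genes lie above the upper dashed line, with C1qb at 0.99 just under it, and Colec11, C7, Vtn and Cd55 lie below the lower one.

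The wider pathway was followed in 27 further complement genes, of which 10 were compared (median change 0.32, or 0.0049 at equal totals). Of the 10 compared, 3 were at least 2-fold higher (30%) and 2 lower (20%), beside 3.88% and 3.12% of all genes compared. At equal totals 3 were higher and 3 lower, beside 2.34% and 5.98% of all genes. Among the 27, 3 genes (C8b, Mbl2 and Cpn2) were at 0 in both libraries. C1s2, a copy of C1s1, was at 1.05 and 3.81, beside 328.6 and 278.7 for C1s1, and how reads were split between these copies is uncertain. The integrins that bind cleaved C3b split by alpha chain. Itgam, the alpha chain of complement receptor 3, was at 46.8 and 251.9, and the shared beta chain Itgb2 at 96.5 and 285.9, whereas Itgax, the alpha chain of complement receptor 4, was at 11.2 and 4.06. Itgam shares exon sequence with another annotated gene on its strand, so its value is less certain. Itgam thus went from 4.17 to 62.1 times the FPKM of Itgax. Cr2, which encodes the complement receptors of B cells and follicular dendritic cells, was at 5.25 and 0.573. The other 5 genes compared were within 2-fold. They were C1qbp (49.0 and 73.9), Cd93 (25.0 and 34.4), C1rl (6.86 and 8.05), Calr (597.8 and 477.1) and Thbd (131.6 and 77.5), of which C1rl turned to -0.10 and Thbd passed 2-fold at -1.10 at equal totals.

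Markers of the cells that could supply these transcripts moved as well, and their part in the complement differences was not tested. All 10 macrophage markers had a change above 0 and 4 were at least 2-fold higher (3 at equal totals, where Cd163 went from 1.22 to 0.89), with a median of 0.79 (0.47 at equal totals), a range from 0.39 to 3.54, and a summed FPKM of 2981 in WT against 5402 in Postn-DTR. The changes of C1qa, C1qb, C1qc, C3ar1 and all 7 complement genes called higher, C4b, Cfb and C6 among them, lay inside this wide range, so it sets no group of them apart. C1q did not follow each marker alike, since C1qb went from 6.78 to 4.16 times the FPKM of Cd68 and from 4.88 to 7.01 times that of Csf1r. Of 7 neutrophil markers analysed, 3 were at least 2-fold higher and 2 lower, with a summed FPKM of 356.1 and 683. At equal totals 2 were higher and 2 lower, since Csf3r went from 1.10 to 0.79. Ly6g was not analysed here, Retnlg was at 12.8 and 72.6, and Mpo at 3.84 and 0.726.

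On the side of lower values, 6 of 8 lymphocyte markers were at least 2-fold lower (7 at equal totals), with summed FPKM of 380.2 and 246.4, beside the lower Cr2 and Cd55. Fcer2a, of B cells, was at 30.5 and 3.10. Of 8 fibroblast markers 2 were lower and none higher, with summed FPKM of 4251 and 3427, and a range from -1.80 for Dpt to 0.20 for Dcn. At equal totals 3 were lower and all 8 were below 0, Dcn at -0.14. C7 and Vtn lay below the fibroblast range on both scales, between which genes shift by similar amounts. The 8 adipocyte markers had a median of -0.57 and a range from -1.09 to 0.42, which included the change of Cfd. They summed to 7969 and 8763, which was 1.47% and 1.30% of the libraries. Fabp4, at 4879 and 6519, held most of this sum, whereas 6 of the 8 markers had a change below 0. At equal totals the median of all 8 was -0.91. The 6 mesothelial markers summed to 507 and 549, or 0.0935% and 0.0817%, and their median of 0.30 turned to -0.03 at equal totals. Liver RNA was nearly absent, since 6 of 8 hepatocyte markers were under 1 in both libraries, Fgb and Apoh were at 0, and Alb was at 2.17 and 1.22.

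**Figure D4:**
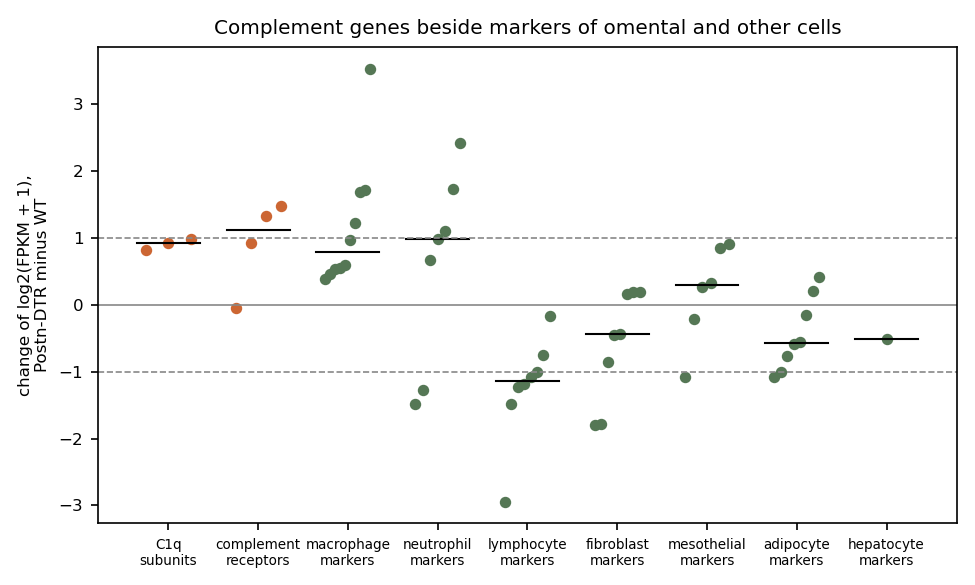
The log2(FPKM + 1) in Postn-DTR less that in WT of the C1q subunits and complement receptors (orange) beside marker genes of 7 cell types (green); each point is a gene compared, black bars are medians and dashed lines mark 2-fold. All macrophage markers lie above 0 with a median of 0.79, next to the C1q median of 0.93, all lymphocyte markers lie below 0, and 1 hepatocyte marker passed the minimum.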

How the data were processed

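RNA-seq of whole omentum was analysed in 2 libraries, 1 WT and 1 Postn-DTR, grouped by the genotype label. Per the labels, a miRNeasy kit gave total RNA, from which stranded mRNA libraries were made. The authors deposited FPKM, 1 value per gene symbol. The submitters' processing notes name TopHat2 2.1.1, Bowtie2 2.2.8, SAMtools 0.1.18, Cuffdiff 2.2.1 and the build mm10. The annotation, the use of strand and any pooling were not given in the sources used here. FPKM depends on the transcript models and on the other RNA in a library, so 1 abundant tissue can shift every gene.

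Changes were computed on log2(FPKM + 1) with Python 3.11.15, pandas 2.3.3 and numpy 2.4.6, and called at 2-fold among genes whose FPKM averaged 1 or more. This scale understates the change of low genes. No test was possible with 1 library per genotype. The functions were tested on simulated data. Positions and lengths came from GENCODE M21 (GRCm38), which matched 23310 of 24346 symbols, and promoters from RefSeq. Read numbers were estimated from low values of genes with 1 transcript of over 1000 bp. Within 0.1 of a whole read lay 76.1% of these values for WT and 75.9% for Postn-DTR, which placed 1 read in a 2000 bp transcript at 0.0240 and 0.0232 FPKM. Reads of members are approximate, since they rest on the longest annotated coding transcript, and ratio intervals are Clopper-Pearson (scipy 1.17.1). Alternatives changed the pseudocount, the minimum, the scaling, the threshold and the genes with near-identical copies.

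The members, the marker lists and the further complement genes were chosen with earlier results of these data known, and 1 further complement gene is not reported here. Named were all members, further complement genes past the minimum or on which a statement rests, markers on which a list rests, and Postn. Pairs of members and the motifs were chosen after their values were seen.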

Additional observations from a re-analysis of the deposited data

How the results depend on the processing

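Of 44 recomputed changes of the 11 called complement genes (4 settings of pseudocount and scaling), 0 changed sign. This was fixed in advance, since a pseudocount cannot turn a sign and the scalings shift changes by less than 2-fold. The call held for 11 genes after centring on the median of all genes, 11 with a pseudocount of 0.1, 9 with a pseudocount of 5 (not Colec11 and C6) and 5 at equal totals without acinar genes. At equal totals the number of higher members was 1 and the median of all members -0.18, the lectin median -0.22, the soluble regulator median -0.31 and the receptor median 0.79. Over all genes 783 were then lower and 307 higher. With a pseudocount of 5 the receptor median was 0.98, and 168 genes were lower and 287 higher. A pseudocount of 0.1 gave 643 lower. With a mean FPKM of at least 10 the members lower numbered 2 and the terminal median was -1.95, from C7 alone, with 173 genes lower and 303 higher. At 1.5-fold 11 members were higher, and 1160 genes were lower and 1294 higher. At 3-fold 2 members were lower and 0 higher, and 153 genes were lower and 199 higher. Leaving out the 6 members with near-identical copies moved the membrane regulator median to 0.049. Stricter thresholds lower counts by construction, a larger pseudocount shrinks changes, and the equal-totals scale moves them down. The membrane regulator median without copies rests on Cd46 (-0.23) and Cr1l (0.32) alone. Why the totals of the libraries differed was not tested. Depth limits Hc and Cfi. No paired analysis was possible because each genotype had 1 library.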
